A study of Mus musculus with 6 samples.

Results

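The kinases of the mitogen-activated protein kinase (MAP kinase) cascade were followed in cultures labelled as CD8+ T cells, with or without sphingosine-1-phosphate (S1P). The genes were taken by name: every protein-coding mouse gene whose symbol is Map4k, Map3k, Map2k or Mapk followed by a number. This gave 43 genes of the 56941 listed in the count table, with 5 in the MAP4K tier, 18 in the MAP3K tier, 7 in the MAP2K tier and 13 in the MAPK tier. Of the 43, 37 had enough counts for a test. The rule uses the symbols alone.

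Cells labelled as naive CD8+ T cells purified from the spleen of B6 mice, where the study's general culture method names purified naive T cells or whole spleen cells, were activated for 3 days in both groups on plates coated with anti-CD3 and anti-CD28, with recombinant IL-2 at 100 U/ml. At 24 h of activation the cultures received S1P at 5 µM, a lipid ligand of S1PR1 and related receptors, or vehicle. RNA-seq was performed on 3 S1P-treated and 3 vehicle-treated samples, which the labels number as biological replicates 1 to 3 without saying whether they came from separate animals, so that p-values measure the spread between these samples. For the donors of these cells, no genotype other than B6 and no age is given. The study asked how signaling through S1PR1 bears on the function of CD8+ T cells. These samples compare S1P with vehicle alone, so S1PR1 and related receptors cannot be told apart, and RNA levels do not measure function.

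The vehicle-treated libraries held 13636095 to 17089831 counts each and the S1P-treated libraries 12048880 to 17384084. S1P-treated replicate 2 stood apart, with 7.80% of its counts on mitochondrially encoded genes against 4.10% to 4.93% in the other 5 samples, and the counts of called genes are also given without it. The T cell markers Cd3d, Cd3e, Cd3g, Cd8a and Cd8b1 were all present. Their summed level was 814 to 940.4 CPM (counts scaled to the size of the library) in vehicle-treated and 688 to 767 in S1P-treated samples. Cd8a and Cd8b1 fell (log2 fold change -0.67 and -0.55, adjusted p = 0.000243 and 0.00767, edgeR). The 3 CD4+ T cell markers, none at 0, summed to 216.5 to 256.8 CPM in vehicle-treated and 234.6 to 296.4 in S1P-treated samples. Of these 3, Zbtb7b rose (log2 fold change 0.37, adjusted p = 0.00886, edgeR), and Cd4, at 186 to 254 CPM, had a log2 fold change of 0.10 (adjusted p = 0.487, edgeR). The 8 B cell markers, none at 0, summed to 1031 to 1253 CPM in vehicle-treated and 1114 to 1217 in S1P-treated samples. Of these 8, Ebf1 rose and Ms4a1 fell. The 7 myeloid markers, of which 2 had enough counts for a test, summed to at most 9.04 CPM, the 4 NK cell markers to at most 3.16 and the 4 erythroid markers to at most 1.02, with 1 of them at 0. In S1P-treated samples Cd4, at 194.9 to 254.3 CPM, lay above Cd8a, at 131.9 to 144 CPM, while in vehicle-treated samples their ranges overlapped. In each group the B cell sum lay above that of the T cell markers. By these markers the libraries did not hold CD8+ T cells alone. The part of B cells or CD4+ T cells in the results below was not tested. In bulk samples, fewer cells of a type and less RNA per cell cannot be told apart.

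In the cascade, a MAP3K phosphorylates a MAP2K, which phosphorylates a MAP kinase on the threonine and the tyrosine of its activation loop. MAP4Ks act upstream of several MAP3Ks. The best known arms end in the classical ERK kinases, which carry growth and antigen receptor signals, in the JNK and p38 kinases, which respond to stress and cytokines, and in ERK5. In T cells these arms control activation, cytokine production and death. They are switched by phosphorylation, which RNA levels do not show.

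Counts were scaled by edgeR's TMM method, and a gene was called when edgeR's quasi-likelihood test gave a Benjamini-Hochberg adjusted p of at most 0.05 over the 13299 genes tested and the log2 fold change (log2FC, S1P over vehicle) was 0.3 or more in size. After S1P, 10 of the 37 tested cascade kinases rose and 3 fell, which is 27% and 8.11%, or 35.1% in either direction. Over all genes tested, 12.7% rose and 10.4% fell, or 23.1% in either direction. Of the 10 that rose, 6 were MAP3Ks, 2 were MAP2Ks, 1 was a MAP4K and 1 a MAPK. Of the 3 that fell, 2 were MAP2Ks and 1 was a MAP4K. A further 5 were past the adjusted p alone, 2 of them higher and 3 lower, so that 18 of 37 passed it, against 28.5% of all genes tested (14.7% higher and 13.8% lower). The cascade genes were more abundant than the typical gene, with a median mean level of 38.03 CPM against 20.9 over all genes tested, and the median standard error of their log2FC was 0.10 against 0.11. Without S1P-treated replicate 2, 11 rose, of which 8 were MAP3Ks, 2 MAP2Ks, 0 MAP4Ks and 1 a MAPK, and 2 fell, of which 1 was a MAP2K and 1 a MAP4K. Without vehicle-treated replicate 3, 6 rose, and without vehicle-treated replicate 1, 1 fell.

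**Figure D1:**
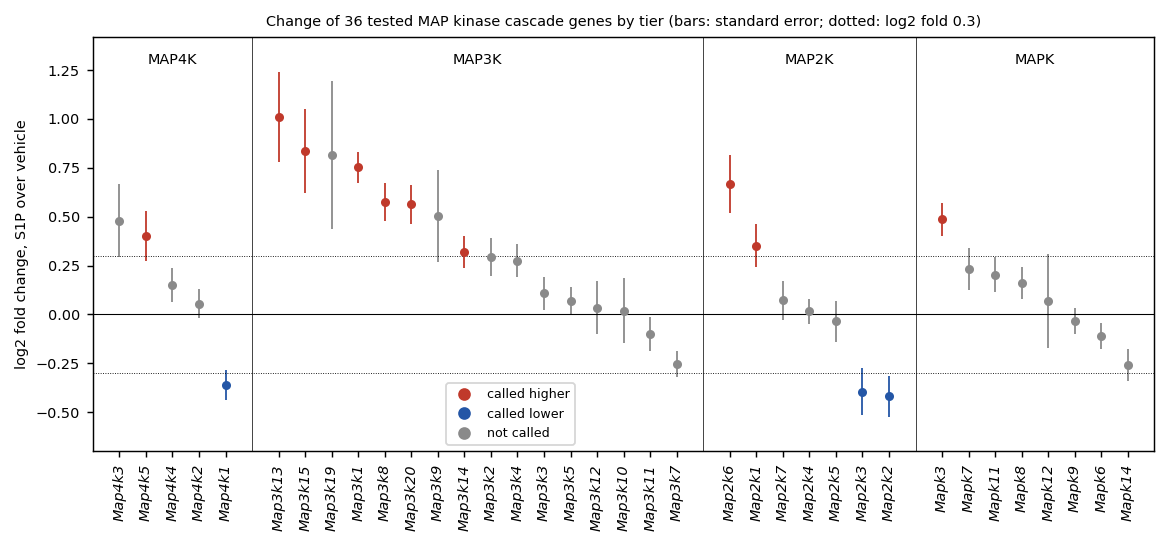
Log2FC of S1P over vehicle (y axis) for 36 of the 37 tested cascade genes, grouped by tier and ordered by size (x axis), with bars for the standard error and dotted lines at a log2FC of 0.3 in size. The MAP3K tier holds 6 genes called higher and 0 called lower, whereas the MAP2K tier holds 2 of each (8 and 0, and 2 and 1, without S1P-treated replicate 2).

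The median log2FC was 0.31 over the 16 tested MAP3Ks, 0.15 over the 5 MAP4Ks, 0.07 over the 9 tested MAPKs and 0.02 over the 7 MAP2Ks, where all genes tested had a median of 0.01. Of the 16 MAP3Ks, 14 had a log2FC above 0 and 2 below. In 24 of the 37 genes (64.9%) all S1P-treated samples lay on one side of all vehicle-treated samples, 16 above and 8 below. The same held for 45.6% of all genes tested, with 23% above and 22.6% below. The differences between tiers were not tested.

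Levels of different genes are compared per kilobase of annotated exon (CPM per kb), which depends on the annotation where a gene has long alternative exons. Summed over a tier, the mean level was higher in S1P-treated samples for MAP3K, lower without overlap for MAP4K (54.8 ± 1.80 in vehicle-treated and 50.3 ± 0.447 in S1P-treated samples) and MAPK (114.6 ± 0.811 and 107.8 ± 1.53), and overlapping for MAP2K (61.6 ± 1.62 and 66.4 ± 5.23; SD, n = 3 each). In the MAP4K tier Map4k1 gave a difference of -6.72 and the other members together one of 2.22. In vehicle-treated samples the most abundant member was Map4k1 at 30.4 ± 1.59 CPM per kb in the MAP4K tier, Map2k1 at 24.3 ± 1.76 in the MAP2K tier and Map3k7 at 16.5 ± 0.338 in the MAP3K tier (SD, n = 3 each). Map4k1 and Map2k1 kept the first place after S1P. In the MAP3K tier Map3k1 took it, at 21.95 ± 1.71 CPM per kb, with Map3k7 next at 13.9 ± 0.763 (SD, n = 3 each). Map3k7 held 21.7% of the summed level of the tier in vehicle-treated and 15.4% in S1P-treated samples. In vehicle-treated samples the ranges of Map3k1 and Map3k3, of Map3k8 and Map3k11, and of Map3k15 and Map3k9 overlapped, and no other neighbours in the order of tested genes of a tier did.

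**Figure D2:**
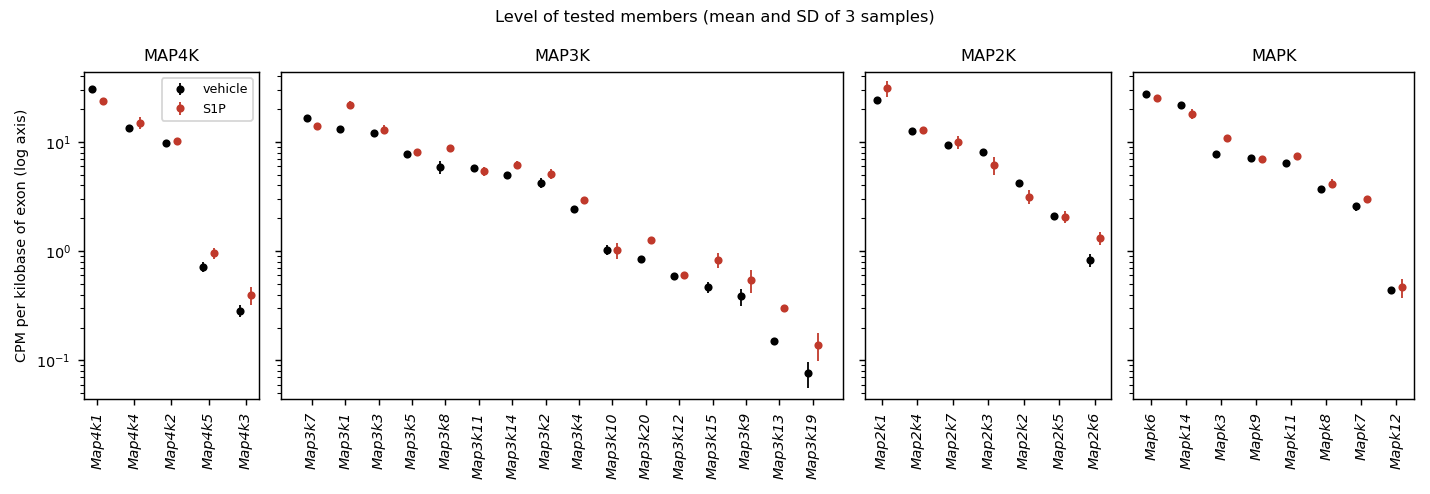
Level of 36 of the 37 tested members as CPM per kb of exon on a log axis (y axis), by tier and in the order of the vehicle-treated samples (x axis), as mean and SD of 3 vehicle-treated (black) and 3 S1P-treated (red) samples. The MAP3Ks span from 16.5 for Map3k7 to 0.0766 for Map3k19 in vehicle-treated samples.

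The MAP3K tier, where signals of many receptors and stresses enter the cascade, had a summed level of 76.2 ± 2.62 CPM per kb in vehicle-treated and 90.01 ± 4.32 in S1P-treated samples (SD, n = 3 each). Of the difference of 13.8, Map3k1 gave 8.91. Map3k1 encodes MEKK1, a kinase mainly of the JNK arm that also carries a ubiquitin ligase domain. Its level was 100.3, 102.3 and 89.7 CPM in vehicle-treated replicates 1, 2 and 3 and 174.8, 167.4 and 149.9 CPM in S1P-treated replicates 1, 2 and 3. All S1P-treated samples lay far above all vehicle-treated ones, a log2FC of 0.75 (standard error 0.08, edgeR adjusted p = 8.93e-05), the smallest adjusted p of the 37 genes. In the fits that each left out 1 library, and in all other alternatives, the log2FC lay between 0.69 and 0.80 (largest edgeR adjusted p = 0.00118).

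Map3k13, which encodes the leucine zipper kinase LZK, had the largest log2FC of the tested cascade genes and one of the lowest levels. It was counted 22, 19 and 20 times in vehicle-treated replicates 1, 2 and 3 and 47, 32 and 32 times in the S1P-treated ones. As CPM these were 1.27, 1.39 and 1.29 against 2.65, 2.81 and 2.51, so that the groups lay well apart with little spread in either. The log2FC was 1.01 (standard error 0.23, edgeR adjusted p = 0.00736), between 0.98 and 1.04 over the alternatives. Its closest relative Map3k12, which encodes DLK and was counted 79 to 113 times, ran from 6.235 to 6.46 CPM in vehicle-treated and from 6.36 to 6.93 CPM in S1P-treated samples, which overlapped (log2FC 0.03, standard error 0.14, edgeR adjusted p = 0.873). Map3k12 has 22.1% of its exon bases under Pcbp2 on the opposite strand, and the strand setting of the authors' counting is not given.

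Map3k15 encodes ASK3, a relative of the stress kinase ASK1. Counts of 36, 31 and 28 in vehicle-treated and 74, 35 and 46 in S1P-treated replicates 1, 2 and 3 gave 2.08, 2.27 and 1.80 against 4.16, 3.07 and 3.61 CPM. The lowest S1P-treated sample was replicate 2, which still lay above the highest vehicle-treated sample. The log2FC was 0.84 (standard error 0.21, edgeR adjusted p = 0.0130), and without vehicle-treated replicate 3 the call was lost (0.75, edgeR adjusted p = 0.0637). Of its exon bases, 16.5% lie under Pdha1 on the opposite strand, which was at 160 to 166 CPM in vehicle-treated and 184 to 205 CPM in S1P-treated samples. Map3k5, which encodes ASK1 itself, was more abundant, at 57.7 to 61.0 CPM in vehicle-treated and 58.8 to 64.5 CPM in S1P-treated samples, and its groups overlapped (log2FC 0.07, standard error 0.07, edgeR adjusted p = 0.495). The third relative, Map3k6 (ASK2), had 3 counts in all 6 samples together.

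The stretches before the annotated start sites of Map3k13 and Map3k15 are shown because these genes had the largest changes among called members and because the study tested their promoters for binding of CHOP, a stress-induced transcription factor of the C/EBP family. Each is the 250 bases upstream of the start of the gene's canonical GENCODE transcript in GRCm39, read on the strand of the gene, which is the plus strand for both, at chr16:21612846-21613095 for Map3k13 and chrX:158771179-158771428 for Map3k15. Letters are lower case except where a searched motif matched. The motifs were TGCAAT, the core bound by C/EBP factors, TGATGNAAN, the joint element of C/EBP and ATF factors, and TGACGTCA, the palindromic cAMP response element bound by ATF and CREB factors, each on both strands. The last was added after the Map3k13 sequence had been seen.
Map3k13: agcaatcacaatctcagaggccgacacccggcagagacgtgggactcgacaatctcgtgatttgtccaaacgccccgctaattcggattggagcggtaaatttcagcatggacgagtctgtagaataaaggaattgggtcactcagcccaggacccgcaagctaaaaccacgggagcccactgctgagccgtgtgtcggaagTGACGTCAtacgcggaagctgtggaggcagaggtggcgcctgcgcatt
Map3k15: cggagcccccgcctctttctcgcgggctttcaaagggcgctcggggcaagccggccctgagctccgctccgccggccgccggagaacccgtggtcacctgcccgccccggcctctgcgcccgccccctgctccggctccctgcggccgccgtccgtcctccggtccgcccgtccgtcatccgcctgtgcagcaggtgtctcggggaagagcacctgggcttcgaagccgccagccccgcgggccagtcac

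The Map3k13 stretch, with 56.0% G and C, held TGACGTCA ending 41 bases before the start, and the Map3k15 stretch, with 76.0% G and C, held none of the motifs. Of the windows of the same length at 21770 protein-coding genes, 1.69% held TGACGTCA, 7.40% held TGCAAT and 3.38% held TGATGNAAN. Among the 43 cascade genes, TGACGTCA was in the windows of Map3k13 and Mapk10, TGCAAT in those of Map4k5 and Map2k4, and TGATGNAAN in 0 of them. A match describes the letters in these windows only, and the start sites used in these cells were not measured. The study searched a longer stretch upstream, with weighted motifs in place of exact letters. It predicted CHOP sites in both promoters and reported more CHOP bound at both after S1P. The lack of a match in the shorter Map3k15 window therefore does not bear on those sites.

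Map3k8 and Map3k20 also rose. Map3k8 encodes TPL2, which activates the ERK arm downstream of inflammatory receptors. It was at 33.15, 25.45 and 28.6 CPM in vehicle-treated replicates 1, 2 and 3 and at 45.0, 43.6 and 41.6 CPM in the S1P-treated ones. The groups did not overlap (log2FC 0.58, standard error 0.10, edgeR adjusted p = 0.001505). Map3k20, which encodes the ribotoxic stress kinase ZAK, was at 13.7, 12.03 and 13.6 CPM against 19.2, 20.3 and 18.7 CPM. Its groups lay apart as clearly (log2FC 0.56, standard error 0.10, edgeR adjusted p = 0.00187), and both genes were called under all 14 alternative fits. Of the exon bases of Map3k8, 12.3% lie under a gene of the opposite strand.

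Map3k14 encodes NIK, known mainly for the noncanonical NF-kB pathway. It ran at 33.3, 34.8 and 33.4 CPM in vehicle-treated and 46.0, 40.02 and 40.5 CPM in S1P-treated replicates 1, 2 and 3. The samples did not overlap, and the change was close to the fold threshold (log2FC 0.32, standard error 0.08, edgeR adjusted p = 0.0133). It lost the call in 5 of 14 alternative fits, among them those that left out vehicle-treated replicate 1 or 3 (edgeR adjusted p = 0.0622 and 0.0625) or S1P-treated replicate 1 (log2FC 0.25).

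Map3k7, Map3k2 and Map3k4 passed the adjusted p with a change under 0.3. Map3k7 encodes TAK1, a kinase of TGF-β, IL-1 and antigen receptor signaling. It was at 194.1, 187.3 and 194.0 CPM in vehicle-treated and 163.9, 150.8 and 167.6 CPM in S1P-treated replicates 1, 2 and 3, lower in every S1P-treated sample (log2FC -0.25, standard error 0.07, edgeR adjusted p = 0.0145, up to 0.0655 over the alternatives). Map3k2 (MEKK2, log2FC 0.29, edgeR adjusted p = 0.0419) and Map3k4 (MEKK4, 0.28, edgeR adjusted p = 0.0328) changed the other way, and both crossed the fold threshold in at least 1 alternative fit. Map3k3 (MEKK3), which acts on the ERK5 arm, had a log2FC of 0.11 (edgeR adjusted p = 0.360).

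The mixed-lineage kinases act mainly on JNK. Map3k11 (MLK3) had a log2FC of -0.10 (edgeR adjusted p = 0.410) and Map3k10 (MLK2) one of 0.02 (edgeR adjusted p = 0.944). Map3k9 (MLK1), counted 28 to 66 times, had a log2FC of 0.50 with a standard error of 0.24 (edgeR adjusted p = 0.134) and was called only in the fit without S1P-treated replicate 2. Map3k19, counted 5 to 15 times, had one of 0.81 with a standard error of 0.38 (edgeR adjusted p = 0.1275), and Map3k21 had no counts.

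**Figure D3:**
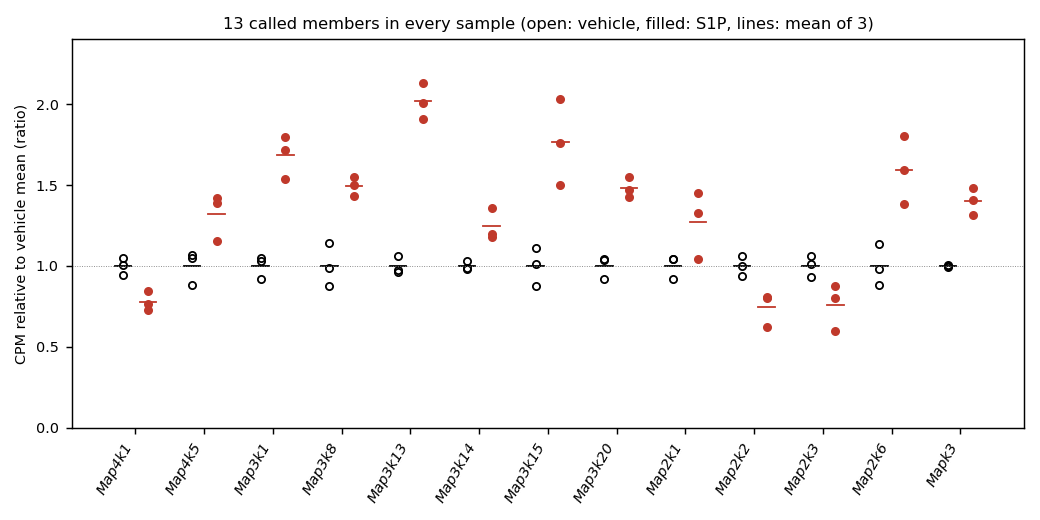
CPM of the 13 called members in every sample, as a ratio to the mean of the vehicle-treated samples (y axis), with open points for vehicle-treated samples, filled points for S1P-treated samples and lines for the means of 3. Map3k13 has the highest mean ratio, and for Map2k1 the lowest S1P-treated sample nearly meets the highest vehicle-treated one.

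In the MAP2K tier, each arm was read through its pair of kinases. For ERK these are Map2k1 (MEK1) and Map2k2 (MEK2), and they moved in opposite directions. Map2k2 was at 40.1, 35.4 and 37.8 CPM in vehicle-treated and 30.5, 23.5 and 30.4 CPM in S1P-treated replicates 1, 2 and 3. It fell in every S1P-treated sample (log2FC -0.42, standard error 0.11, edgeR adjusted p = 0.0124), and the call was lost without vehicle-treated replicate 1 (-0.38, edgeR adjusted p = 0.0615). Map2k1 was at 95.2, 95.1 and 83.6 CPM against 132.3, 95.3 and 121.3 CPM. S1P-treated replicate 2 lay just above the highest vehicle-treated sample, and the other S1P-treated samples lay well above it. The log2FC was 0.35 (standard error 0.11, edgeR adjusted p = 0.0300), and the call was lost in 5 of the 6 fits that left out 1 library, all but that without S1P-treated replicate 2, with a log2FC of 0.29 when vehicle-treated replicate 3 was left out (edgeR adjusted p = 0.135) and 0.25 when S1P-treated replicate 1 was left out (edgeR adjusted p = 0.0877). Map2k1 has 31.4% of its exon bases under Snapc5 on the opposite strand, which was at 9.12 to 16.01 CPM.

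The kinases of p38, Map2k3 (MKK3) and Map2k6 (MKK6), also moved apart. Map2k6 was at 7.78, 6.75 and 6.04 CPM in vehicle-treated replicates 1, 2 and 3 and at 10.9, 12.4 and 9.50 CPM in the S1P-treated ones. All S1P-treated samples were above all vehicle-treated ones (log2FC 0.67, standard error 0.15, edgeR adjusted p = 0.00666), and the call held under all 14 alternative fits. Map2k3 went from 67.5, 62.05 and 70.8 CPM to 58.4, 39.8 and 53.5 CPM. The lowest of these was S1P-treated replicate 2, and the groups did not overlap (log2FC -0.39, standard error 0.12, edgeR adjusted p = 0.0282). Without that replicate the log2FC was -0.25 (edgeR adjusted p = 0.0200), under the fold threshold, and 3 other libraries each took the call away when left out, with edgeR adjusted p values of 0.0855 for vehicle-treated replicate 1, 0.109 for vehicle-treated replicate 3 and 0.0621 for S1P-treated replicate 3.

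The kinases of JNK showed no such change. Map2k4 (MKK4) was at 92.4, 96.7 and 89.6 CPM in vehicle-treated and 93.0, 91.4 and 97.3 CPM in S1P-treated replicates 1, 2 and 3, with overlapping groups (log2FC 0.02, standard error 0.07, edgeR adjusted p = 0.879). Map2k7 (MKK7) had a log2FC of 0.07 (standard error 0.10, edgeR adjusted p = 0.622), and 34.8% of its exon bases are shared with Gm49320, a gene model of the same strand with no counts. Map2k5 (MEK5), the kinase of ERK5, had one of -0.04 (standard error 0.10, edgeR adjusted p = 0.826).

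In the MAPK tier, Mapk3 was the 1 called gene. It encodes ERK1, which MEK1 and MEK2 phosphorylate. Mapk3 was at 20.6, 20.8 and 20.8 CPM in vehicle-treated replicates 1, 2 and 3 and at 29.15, 30.8 and 27.3 CPM in the S1P-treated ones. The vehicle-treated samples were nearly identical and all S1P-treated samples higher (log2FC 0.49, standard error 0.09, edgeR adjusted p = 0.00172), in all 14 alternative fits.

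Of the p38 kinases, Mapk14 (p38α), Mapk11 (p38β) and Mapk12 (p38γ) were tested. Mapk14, by far the most abundant of them, was at 112.2, 105.5 and 113.5 CPM in vehicle-treated and 99.5, 80.7 and 96.1 CPM in S1P-treated replicates 1, 2 and 3. Every S1P-treated sample was lower (log2FC -0.26, standard error 0.08, edgeR adjusted p = 0.0364, up to 0.127 over the alternatives), under the fold threshold, and it crossed that threshold only without S1P-treated replicate 1 (-0.32). Mapk11 lay at 20.4 to 22.8 CPM and 23.7 to 25.6 CPM, without overlap but not past the adjusted p (log2FC 0.20, edgeR adjusted p = 0.109). Mapk12, counted 25 to 33 times, had a log2FC of 0.07 (standard error 0.24, edgeR adjusted p = 0.854). The p38 genes lie in neighbouring pairs, Mapk12 and Mapk11 with 1676 bases between them on chromosome 15 and Mapk14 and Mapk13 with 20365 bases between them on chromosome 17. Mapk13 (p38δ) had at most 3 counts in any sample, beside up to 1947 for Mapk14.

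Mapk9 (JNK2) and Mapk8 (JNK1) had log2FC of -0.03 and 0.16 (standard errors 0.07 and 0.08, edgeR adjusted p = 0.742 and 0.172). Mapk7 (ERK5) had one of 0.23 (edgeR adjusted p = 0.133), and the atypical kinase Mapk6 (ERK3), at 198.8 to 206.4 CPM in vehicle-treated and 176.0 to 197.4 CPM in S1P-treated samples, one of -0.11 (edgeR adjusted p = 0.231). Mapk4, Mapk10 and Mapk15 were not tested, with at most 4 counts in any sample. Expression of these was not detectable beyond single counts at this depth.

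The MAP4K tier had 1 gene in each direction. Map4k1 encodes HPK1, a kinase of blood cells that restrains antigen receptor signaling. It was at 132.5, 124.4 and 138.1 CPM in vehicle-treated replicates 1, 2 and 3 and at 100.5, 95.9 and 111.2 CPM in the S1P-treated ones. It was lower in every S1P-treated sample (log2FC -0.36, standard error 0.08, edgeR adjusted p = 0.00464) and called in all 14 alternative fits. Map4k5 (KHS) went from 10.9, 9.02 and 10.7 CPM to 14.2, 14.5 and 11.8 CPM. The groups did not overlap (log2FC 0.40, standard error 0.13, edgeR adjusted p = 0.0359), yet the call was lost in 8 of 14 alternative fits, with DESeq2 (adjusted p = 0.0559) and without each library in turn except S1P-treated replicate 3, with a log2FC of 0.32 when vehicle-treated replicate 2 was left out (edgeR adjusted p = 0.1325). Map4k3 (GLK), without overlap of the groups, had a log2FC of 0.48 (standard error 0.19, edgeR adjusted p = 0.0738) and was called only without S1P-treated replicate 3, Map4k4 (HGK) one of 0.15 (edgeR adjusted p = 0.220, and 0.04 without S1P-treated replicate 2) and Map4k2 one of 0.05 (edgeR adjusted p = 0.616).

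Since related kinases often serve the same substrates, the balance within 8 pairs was followed as the share of the first gene in the CPM per kb of both, and 7 of the pairs are described. The share of Map2k2 in Map2k2 and Map2k1 was 15.1%, 13.6% and 16.03% in vehicle-treated and 8.87%, 9.44% and 9.57% in S1P-treated replicates 1, 2 and 3. It was lower in every S1P-treated sample. Map2k6 held 10.3%, 9.78% and 7.84% of its pair with Map2k3 in vehicle-treated and 15.7%, 23.7% and 15.03% in S1P-treated replicates 1, 2 and 3. S1P-treated replicate 2 was the highest of these and also the sample with the lowest Map2k3.

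For Mapk11 in Mapk11 and Mapk14 the mean share was 23.0% ± 0.980 in vehicle-treated and 29.2% ± 2.19 in S1P-treated samples. For Map3k13 in Map3k13 and Map3k12 it was 20.4% ± 1.15 and 33.4% ± 0.573, and for Map3k15 in Map3k15 and Map3k5 5.75% ± 0.483 and 9.30% ± 1.01 (SD, n = 3 each). In these 5 pairs the groups did not overlap. The exact two-sided permutation test gave p = 0.1, the smallest that 3 samples against 3 allow, and 0.133 adjusted over all 8 pairs. Of all single genes tested, 45.6% did not overlap, and the share over other gene pairs was not computed. The shares restate changes given above, since Map2k2, Map2k6, Map3k13 and Map3k15 were called and Mapk11 and Mapk14 each lay apart. The JNK pairs overlapped, with a mean share of Mapk9 of 66.0% ± 0.479 and 62.9% ± 2.75 and of Map2k7 of 42.6% ± 1.76 and 43.5% ± 3.77 (SD, n = 3 each, exact permutation p = 0.2 and 0.8). Leaving out S1P-treated replicate 2 took the difference of Mapk9 from -3.05 to -1.64 percentage points and that of Map2k7 from 0.940 to -1.24. Without vehicle-treated replicate 2 the latter was -0.019.

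**Figure D4:**
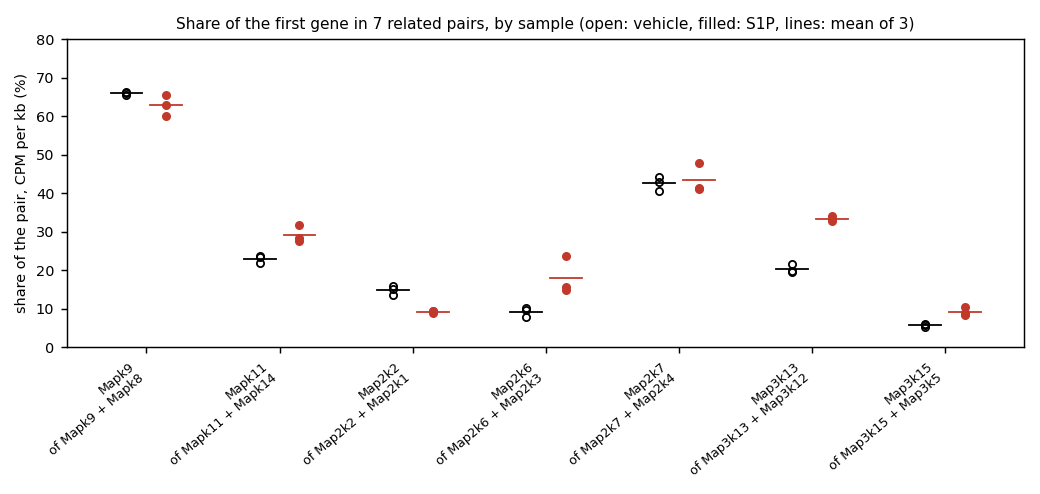
Share of the first gene in the CPM per kb of 7 related pairs (y axis, percent) in every vehicle-treated (open) and S1P-treated (filled) sample, with lines for the means of 3. The groups are apart in 5 pairs, and the pairs of JNK and of its MAP2Ks overlap. Of all single genes tested, 45.6% had groups apart.

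Other genes of the cascade were described in the same way, in 4 lists. Among 10 kinases of the same tiers under other names, 9 were tested and 1 rose and 1 fell, or 22.2% called in either direction against 23.1% of all genes tested. Taok3, which encodes a MAP3K, rose (log2FC 0.47, edgeR adjusted p = 0.0184). Taok3 was highest in S1P-treated replicate 2, at 215.2 CPM against 138.3 and 154.5 CPM in replicates 1 and 3 and 120.0 to 123.5 CPM in vehicle-treated samples. The median of this list was -0.10.

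Of 14 scaffolds and adaptors, 11 were tested, 2 rose and 0 fell, with a median of 0.17, or 18.2% called against the same 23.1%. Arrb1, which encodes β-arrestin 1, an adaptor of G-protein-coupled receptors that also binds MAP kinases, was at 40.3, 57.4 and 30.9 CPM in vehicle-treated and 158.7, 117.4 and 127.3 CPM in S1P-treated replicates 1, 2 and 3. That was the largest change in these lists (log2FC 1.66, standard error 0.18, edgeR adjusted p = 0.000108). Tab2, which encodes a partner of TAK1, also rose (log2FC 0.31, edgeR adjusted p = 0.0218).

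Of 11 kinases activated by MAP kinases, 9 were tested, with a median of -0.17, and 1 rose and 1 fell, or 22.2% against 23.1%. Rps6ka5 (MSK1), a substrate of ERK and p38 that phosphorylates chromatin and CREB, rose from 9.17, 9.535 and 7.78 CPM to 14.2, 13.8 and 12.5 CPM (log2FC 0.62, standard error 0.12, edgeR adjusted p = 0.00373). Mknk2 (MNK2), which phosphorylates the translation factor eIF4E, fell from 202.8, 206.5 and 204.1 CPM to 170.8, 127.7 and 170.7 CPM (log2FC -0.38, edgeR adjusted p = 0.0140). For both genes the groups did not overlap.

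Among 10 regulators of MAP3Ks, all tested and with a median of 0.06, Gadd45a and Gadd45b, which bind MEKK4, rose with log2FC of 0.69 and 0.595 (edgeR adjusted p = 0.0178 and 0.00584). Gadd45g had a log2FC of 0.32 (edgeR adjusted p = 0.136). The thioredoxins Txn1 and Txn2, which bind and restrain ASK1, fell, with log2FC of -0.36 and -0.39 (edgeR adjusted p = 0.0112 and 0.00357). Traf3, an adaptor that keeps NIK protein low, fell as well (log2FC -0.33, edgeR adjusted p = 0.00959). In this list, which holds both activators and inhibitors, 2 genes rose and 3 fell, or 20% and 30%, against 12.7% and 10.4% of all genes tested.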

How the data were processed

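Polyadenylated RNA was made into strand-specific libraries and read in pairs. Per the submitters' processing notes, Trim Galore, STAR, GRCm39 and featureCounts were used. The deposited table holds their raw counts per Ensembl gene. Tool versions, annotation release, strand setting and treatment of multi-mapped reads are not given in the sources used here. DESeq2 was the authors' test.

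Symbols, exon lengths and start sites came from GENCODE vM39, which holds 56323 of the 56941 identifiers. Counts were tested with edgeR 4.0.16 (limma 3.58.1, R 4.3.3): filterByExpr, TMM factors, quasi-likelihood test, treatment as the only term. CPM are counts over TMM-scaled library sizes. Standard errors given with edgeR values were derived from the test, as the size of the log2FC over the square root of its F statistic. Alternatives were DESeq2 1.42.0, limma-voom, other factors, filters and thresholds, the replicate number as a block, and each library left out. The fit was first tested on simulated data. It recovered 51.5% of genes with a true log2FC of 0.5 in size and 86.6% of those with 1. A gene that was not called is therefore not shown to be unchanged. Within each group no 2 samples were duplicates: chi-square per gene was at least 3.84 for each of the 6 pairs. It was 32.0 and 18.6 for S1P-treated replicate 2 against replicates 1 and 3, and at most 6.06 for the other pairs. Counting error is a larger part of the spread of genes with few counts.

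Values in every sample were given for called members, for those the study followed by qPCR and for the most abundant of each tier, and for other genes as ranges. By qPCR the study reported Map3k8, Map3k13, Map3k15, Map2k3, Map2k4 and Map2k6 higher after S1P. Here Map2k3 fell, Map2k4 was not called and the others rose. Of other lists, called genes were named, with Gadd45g added after its values were seen. Some genes enter the counts but are not reported here by name. Members and lists were chosen with earlier results of these data known.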

Additional observations from a re-analysis of the deposited data

How the results depend on the processing

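Of the 13 called members, 7 kept their call and direction in all 14 alternative fits (Map4k1, Map3k1, Map3k8, Map3k13, Map3k20, Map2k6 and Mapk3), and 6 lost the call in at least 1. None of the 13 reversed. Of the others, 5 were called in at least 1 fit. With all libraries the counts of 10 higher and 3 lower became 1 and 0 at a log2 fold change of at least 1, and 6 and 1 at an adjusted p of at most 0.01. Without a fold change threshold 6 were lower. With libraries left out 1 at a time, 6 to 11 members were higher and 1 to 4 lower. By tier these ranges were 0 to 2 higher for MAP4K, where 1 was higher with all libraries, 1 to 2 higher and 0 to 2 lower for MAP2K, and 0 to 1 lower for MAPK. The MAP4K count of higher genes was 0 with DESeq2, with total count only and without a filter, and the MAP2K count was 1 with total count only. MAP3K counts lay between 4 and 8 higher and at 0 lower.

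Reversed directions were limited to 7 members that were not called. With total count only and without a filter, the log2 fold change was -0.003 and -0.006 for Map3k10 and -0.011 and -0.013 for Map2k4. With libraries left out 1 at a time, the values ran from -0.129 to 0.124 for Map3k10, from -0.018 to 0.041 for Map2k4, from -0.106 to 0.075 for Map2k5, from -0.040 to 0.147 for Map2k7, from -0.084 to 0.228 for Mapk12, from -0.003 to 0.056 for Map3k12 and from -0.003 to 0.107 for Map4k2. The cause was not tested. Without a filter the median over all genes was 0.16 in place of 0.01.

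The replicate number as a block gave 10 higher and 3 lower members. Deviations of same-numbered samples correlated at 0.12, -0.0060 and 0.048, so that the samples were taken to share only a number. Of the 8 pairs of related kinases, length mattered to the level of the shares, since raw counts gave Map2k2 29.3% and 19.5% of its pair, Map3k13 17.1% and 28.8%, and Map3k15 3.33% and 5.48%, in vehicle-treated and S1P-treated samples, a difference of 2.15 percentage points for Map3k15 in place of 3.55. Standard errors of the log2 fold change were 0.23 to 0.38 for Map3k13, Map3k9, Mapk12 and Map3k19, which had few counts, against a median of 0.10 over the tested members.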
